A study of Homo sapiens with 24 samples.

Results

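The genes described here are 9 components of MHC class I antigen presentation: the heavy chains HLA-B, HLA-C, HLA-E and HLA-F, the light chain B2M, the peptide transporter subunits TAP1 and TAP2, and the immunoproteasome subunits PSMB8 and PSMB9. They were taken as a fixed list of symbols, each matched to 1 Ensembl ID of the deposited gene table, so that 9 of the 60236 IDs in the table are described. The table holds 24 poly(A)-enriched RNA-seq libraries in 8 groups of 3, made from 2 human cell lines that each received 1 of 4 plasmids. HEK293T is a line derived from embryonic kidney and A549 is an epithelial line derived from a lung adenocarcinoma. Cells were transfected with Lipofectamine 3000 and collected after 48 h. The scramble and snaR-A plasmids drive a scrambled control RNA or snaR-A, a small noncoding RNA of RNA polymerase III, from a U6 promoter. The eGFP and SF3B2 plasmids share a pcDNA3.1 backbone and express a green fluorescent protein or the spliceosomal U2 snRNP protein SF3B2. Every group therefore carries a plasmid, no untransfected cells were used, and eGFP differs from scramble in vector and promoter as well as in its product. Each line is a single cell line, and p-values measure the spread between the 3 libraries of a group. The methods call the replicates biological and handled on a single day, and do not say whether they were separate cultures.

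MHC class I molecules display peptides from the cytosol on the surface of nearly all nucleated cells, where cytotoxic T cells and natural killer cells read them. The proteasome makes the peptides, and its interferon-inducible subunits PSMB8, PSMB9 and PSMB10 replace the constitutive catalytic subunits. The transporter of TAP1 and TAP2 carries peptides into the endoplasmic reticulum, where they are trimmed by ERAP1 and ERAP2 and loaded onto a heavy chain paired with B2M. The pathway is a well known transcriptional target of interferons, through IRF1 and the class I transactivator NLRC5.

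The libraries held between 195185935 and 260878271 counts. The A549 marker genes, among them the keratin KRT7, were at a median of 89.7% to 106.5% of the A549 mean in all 12 A549 libraries. In 11 HEK293T libraries these markers were at 0.0311% to 0.141%. The highest of these was SF3B2 replicate 3, with 306 KRT7 counts against 4 to 37 in the rest. In eGFP replicate 3 of HEK293T the markers were at 3.76%, with 8556 KRT7 counts. The 8 genes listed as HEK293T markers summed to 512 to 883 CPM in HEK293T and to 252 to 282 CPM in A549. Not all of them marked HEK293T. The medians of ENO2, CDH2 and SALL4 were higher in A549, at 60.5, 133 and 8.20 CPM, than in HEK293T, at 15.7, 115 and 3.39 CPM. SF3B2 stood at 24053 to 48884 CPM in the SF3B2 libraries and at 293 to 371 CPM in all others except scramble replicate 3 of A549, where it stood at 8773 CPM. Replicate 3 of the A549 snaR-A group is labelled A549 in its title and HEK293T in another label, and its A549 markers were at 99.2%. No ID in the table carries the name of snaR-A or eGFP, so their levels were not checked. Most calls of the members that use eGFP replicate 3 of HEK293T or scramble or snaR-A replicate 3 of A549 are also given without them, with some of the values. For SF3B2 replicate 3 of HEK293T this is done for SF3B2 against eGFP in that line. Differences between the lines in the eGFP libraries, and counts over other gene lists, are given with all libraries. The 5 blood cell markers, which would mark cells rich in class I, summed to 1.13 to 5.45 CPM.

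The promoters of the members were searched for short motifs, a search planned with earlier results of these data known. RefSeq (GRCh38.p14) gave promoter windows for 8 of the 9 members, without HLA-E. In the 250 bases before the RefSeq start site, the interferon-stimulated response element matched in B2M, TAP1, TAP2 and HLA-F. It was taken as GAAA, any 2 bases and GAAA on either strand. It matched in 3.02% of all 35116 promoter windows of this length. The matches of B2M and TAP1 each consist of 2 overlapping copies. The stretches that carry them are shown 5′ to 3′ on the strand of the gene, with the matches in capitals.
B2M, chr15:44711267-44711516, plus strand: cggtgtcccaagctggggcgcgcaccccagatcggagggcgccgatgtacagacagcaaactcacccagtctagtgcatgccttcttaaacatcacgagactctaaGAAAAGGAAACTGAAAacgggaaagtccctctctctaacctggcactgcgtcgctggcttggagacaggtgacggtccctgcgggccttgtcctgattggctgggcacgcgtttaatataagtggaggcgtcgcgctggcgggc
TAP1, chr6:32853817-32853954, minus strand: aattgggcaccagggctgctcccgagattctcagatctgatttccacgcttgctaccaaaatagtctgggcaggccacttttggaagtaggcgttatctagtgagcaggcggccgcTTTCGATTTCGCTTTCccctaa
TAP2, chr6:32838778-32838807, minus strand: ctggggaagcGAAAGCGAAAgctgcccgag
HLA-F, chr6:29723268-29723297, plus strand: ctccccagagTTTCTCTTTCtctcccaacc
By the RefSeq starts of their first windows, TAP1 and PSMB9 are transcribed away from each other, with 487 bases between the starts. The pair of matches lies 134 to 119 bases before the TAP1 start and 369 to 354 bases before the PSMB9 start, outside the PSMB9 window, which held no match itself. The GENCODE gene spans given below have other ends. By them TAP1 and PSMB9 overlap, and the matches of B2M and HLA-F lie inside the spans of their own genes. The interferon-gamma activated site TTCNNNGAA matched only in the second windows of TAP1 and PSMB8, against 6.57% of all windows, and the cyclic AMP response element TGACGTCA matched in no member, against 1.65%. The kappaB motif, taken as GGG, any 5 bases and CC on either strand, matched in HLA-B, HLA-C, B2M, TAP1 and TAP2, against 54.4% of all windows, and CCAAT matched in HLA-B, HLA-C, HLA-F, B2M, TAP1 and PSMB9, against 32% of all windows. A match is a run of letters and does not show that a factor binds there. With eGFP in A549, described below, B2M and TAP1 were called, and PSMB9 was called without a match in its window. HLA-F, with a match, was not called, and TAP2, with a match, could not be tested. Whether the matches relate to these calls was not tested.

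The levels of the members differed between the lines by up to several orders of magnitude, in both directions. The clearest contrast was between HLA-B, HLA-C and TAP2, abundant in every HEK293T library with few or no counts in A549, and PSMB8, with 37 to 879 counts in A549 and 0 to 7 in HEK293T. HLA-B held 15277 to 29648 counts in the 12 HEK293T libraries, with a median of 22349, and 2 to 22 counts in the 12 A549 libraries. HLA-C held 9541 to 20022 counts in HEK293T and 32 to 157 counts in A549. TAP2 held 9082 to 14237 counts in HEK293T and 0 counts in each A549 library. These are counts under a single Ensembl ID for each gene, and the numbers for the MHC depend on how reads were shared among IDs, as set out next.

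By the annotation (GENCODE 44, hg38), the table's IDs are HLA-B (ENSG00000234745) at chr6:31353872-31367067, HLA-C (ENSG00000204525) at chr6:31268749-31272130, HLA-E (ENSG00000204592) at chr6:30489509-30494194, HLA-F (ENSG00000204642) at chr6:29722775-29738528. The others are B2M (ENSG00000166710) at chr15:44711358-44718851, TAP1 (ENSG00000168394) at chr6:32845209-32853816, TAP2 (ENSG00000204267) at chr6:32821833-32838739, PSMB8 (ENSG00000204264) at chr6:32840717-32844679 and PSMB9 (ENSG00000240065) at chr6:32844136-32859851. All but B2M lie in the MHC on chromosome 6. The span of PSMB9 overlaps those of PSMB8 and TAP1 on the opposite strand, and whether the counting used strand is not given in the sources used here. The hg38 sequence set carries alternate versions of the MHC beside chromosome 6, and Ensembl gives the genes on them IDs of their own. The table holds 5333 IDs that could not be paired with a symbol here, with 2.53% of all counts, and whether reads of the members were assigned to some of them could not be settled. Aligned over at least 95% of its length, the canonical transcript of PSMB8 was identical on 6 of 7 alternate sequences and that of TAP1 on 5 of 7. The nearest alternate version differed by 22 bases for HLA-B, 4 bases for HLA-C and 2 bases for TAP2. Of the 102 protein-coding genes between HLA-F and TAPBP with at least 100 counts in a library, 22.5% fell from at least 100 counts to 3 or fewer between 2 replicates of 1 group, against 0.923% of 14634 genes outside this span. A count near 0 in 1 line is therefore a count for that ID and not a measure of the gene's RNA, and for members of the MHC the share of the line differences that comes from read assignment was not tested. Words of 31 bases shared with other genes made up 38.1% of HLA-B, mostly shared with the pseudogene DHFRP2 and with HLA-C. They made up 15.9% of HLA-C, 19.2% of TAP2, 10.7% of HLA-E and 0.434% of B2M.

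**Figure D1:**
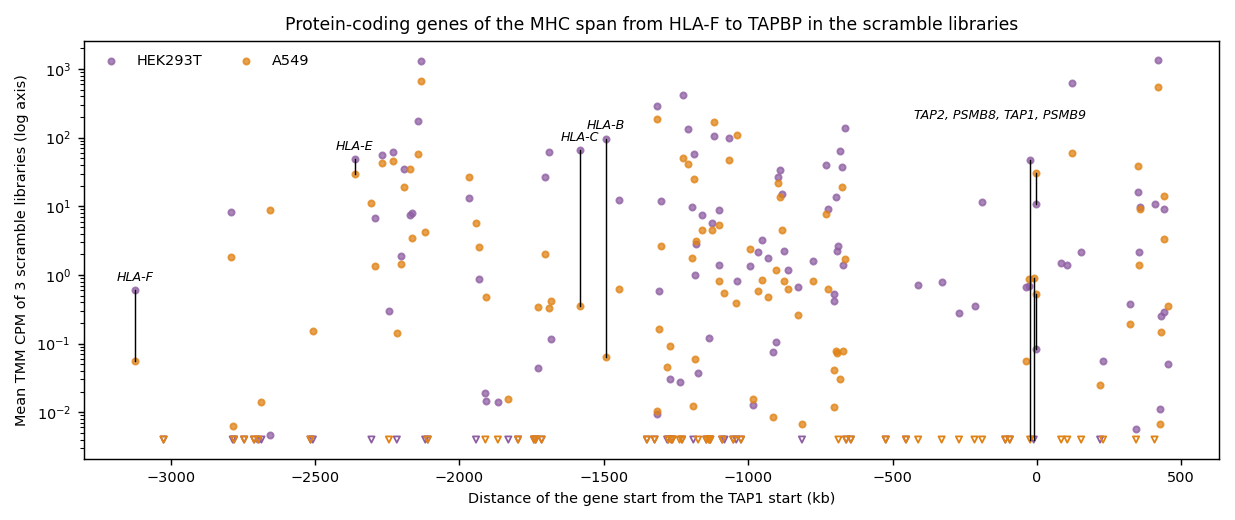
Mean level (TMM CPM, log axis) of protein-coding genes between HLA-F and TAPBP in the 3 scramble libraries of HEK293T (purple) and A549 (orange). The x axis gives the distance in kb of each gene's midpoint, labelled there as its start, from the TAP1 start. Black lines join both lines' values for the MHC members, and open triangles at the lower edge mark means under 0.004 CPM; HLA-B stood at 97.2 CPM in HEK293T and 0.0640 CPM in A549.

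Between the scramble libraries of the lines, 77.5% of the 23124 genes tested differed by edgeR's quasi-likelihood test with Benjamini-Hochberg adjustment at 0.05. All 9 members did, 4 of them higher in A549, against 38.2% of all genes, and 5 lower, against 39.3%. HLA-B, HLA-F, TAP2 and PSMB8 entered the test only through the line where they are high, so their calls are no independent result. With at least 10 counts required in every library these 4 were not tested, and the other 5 were called. TAP1 stood at 11.1, 10.9 and 10.0 CPM in HEK293T and at 28.9, 28.4 and 33.4 CPM in A549, a log2 difference of 1.44 (SE 0.0870, adjusted p = 1.01e-06). PSMB9 stood at 0.0726, 0.112 and 0.0657 CPM in HEK293T and at 0.731, 0.423 and 0.433 CPM in A549, 2.59 higher on the log2 scale (SE 0.336, adjusted p = 0.000132). HLA-B was lower in A549 by a log2 value of -10.67, HLA-C by -7.64 and HLA-F by -3.47. Between the eGFP libraries the HLA-F value was -0.33 and was not called (edgeR adjusted p = 0.45). TAP2, at 0 in the A549 libraries, was at least 3823-fold lower there when 3 counts per library are taken as the floor. PSMB8 held 421, 37 and 66 counts in A549 and 1, 1 and 0 counts in HEK293T, under the floor, so no fold is given. Without A549 scramble replicate 3 all 9 members were called, among 18366 genes, with TAP1 at 1.37, PSMB9 at 2.72 and HLA-F at -3.76.

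B2M and HLA-E differed least between the scramble libraries of the lines. B2M stood at 159.5, 169 and 154 CPM in HEK293T scramble and at 197, 205 and 193 CPM in A549 scramble, a log2 difference of 0.24 (edgeR adjusted p = 0.00493) that became -0.16 when libraries were scaled by their totals alone, which moved the median of all genes to -0.41 and the split of calls from 8822 higher and 9099 lower to 6326 and 11688. HLA-E was lower in A549 by -0.76 in the scramble libraries, and higher by 0.23 between the SF3B2 libraries and by 0.79 between the eGFP libraries. The sign of the HLA-E difference between the lines thus depended on the plasmid. Per kilobase of canonical transcript, HEK293T scramble libraries held 171 ± 7.67 CPM of B2M, 63.3 ± 3.26 of HLA-B, 43.2 ± 2.43 of HLA-C, 19.0 ± 1.76 of HLA-E, 8.49 ± 0.172 of TAP2 and 3.97 ± 0.206 of TAP1 (SD, n = 3). The A549 scramble libraries held 210 ± 6.57 CPM per kilobase of B2M, 11.7 ± 1.03 of HLA-E and 11.3 ± 1.03 of TAP1. B2M, which pairs with every class I heavy chain, was thus the most abundant member per length in both lines.

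**Figure D2:**
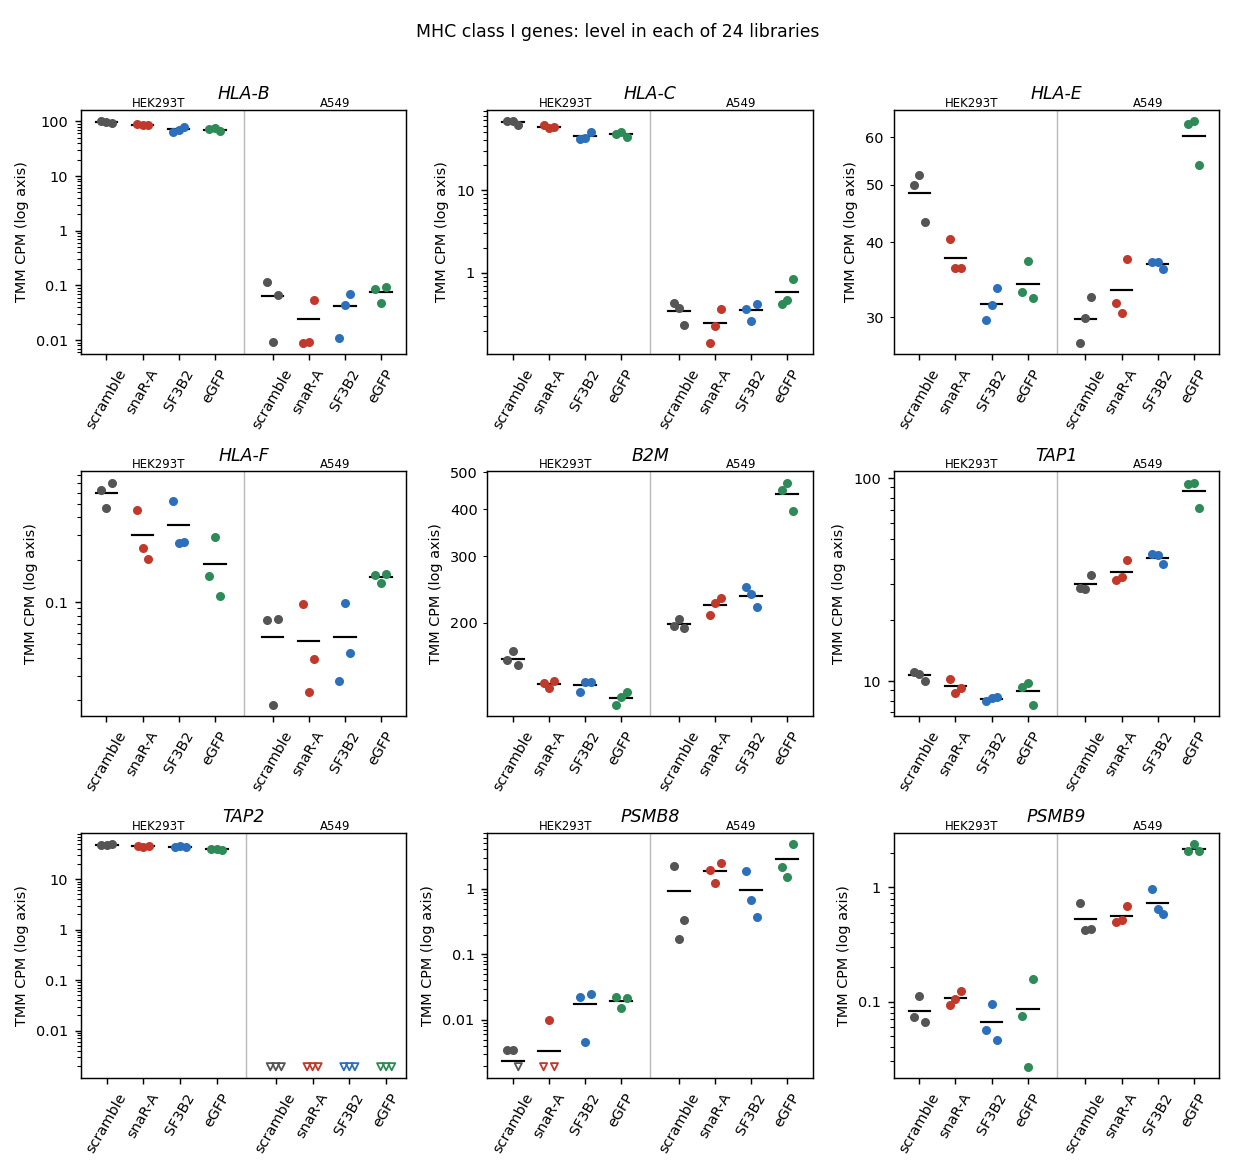
Level of each member (TMM CPM, log axis) in every library, by plasmid, with HEK293T to the left and A549 to the right of the grey line in each panel. Points are libraries, bars are the means of 3 and open triangles are libraries at 0 counts. In A549 the eGFP libraries stood above all others for HLA-E, HLA-F, B2M, TAP1 and PSMB9, from 54.0 to 64.0 CPM for HLA-E. HLA-F held only 29 to 33 counts in them. The share of all genes that separate in this way was not counted.

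Cells that received eGFP were compared with cells that received scramble to see how the control plasmids differ from each other. In A549, HLA-E, B2M, TAP1 and PSMB9 rose, 4 of the 8 members tested, where 1.49% of the 21578 genes tested were called and 1.46% rose. B2M stood at 197, 205 and 193 CPM with scramble and at 449, 469.8 and 395 CPM with eGFP. The ranges did not overlap, and B2M rose by 1.14 on the log2 scale (SE 0.0704, adjusted p = 0.000186). In bulk libraries a change in every cell and a change in the share of cells with much of an RNA cannot be told apart.

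TAP1, the transporter subunit paired with TAP2, stood at 28.9, 28.4 and 33.4 CPM with scramble and at 93.8, 95.1 and 71.5 CPM with eGFP in A549. Its lowest eGFP library was replicate 3, and TAP1 rose by 1.52 (SE 0.119, edgeR adjusted p = 0.000624). PSMB9, the immunoproteasome subunit encoded beside TAP1, stood at 0.731, 0.423 and 0.433 CPM with scramble and at 2.11, 2.38 and 2.08 CPM with eGFP, a rise of 2.04 (SE 0.235, edgeR adjusted p = 0.00523). HLA-E, a nonclassical heavy chain read by natural killer cells, stood at 27.1, 29.9 and 32.4 CPM with scramble and at 63.2, 64.0 and 54.0 CPM with eGFP, a rise of 1.01 (SE 0.0876, edgeR adjusted p = 0.00104). These 4 members were called without each library in turn, including scramble replicate 3. Without that library the log2 values were 1.08 for HLA-E, 1.12 for B2M, 1.59 for TAP1 and 1.92 for PSMB9.

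The other members tested were not called, with few counts in A549 for HLA-B, HLA-C and HLA-F and a wide spread within groups for PSMB8. HLA-F held 14, 4 and 15 counts with scramble and 33, 29 and 29 counts with eGFP, a log2 value of 1.41 with a 95% interval of 0.48 to 2.35 (edgeR adjusted p = 0.516). PSMB8 spread over 37 to 421 counts with scramble and 321 to 879 counts with eGFP, with overlapping ranges and an adjusted p of 0.906. HLA-C held 82, 81 and 46 counts with scramble and 88, 100 and 157 counts with eGFP (log2 value 0.73, adjusted p = 0.823). HLA-B held 22, 2 and 13 counts and 18, 10 and 17 counts (log2 value 0.23, adjusted p = 0.993).

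In HEK293T the same comparison gave lower values for 6 of the 8 members tested, among 48.8% of 22613 genes called and 25.8% that fell. HLA-B, HLA-C, HLA-E, HLA-F, B2M and TAP2 fell, and none rose. HLA-B stood at 103, 96.5 and 92.6 CPM with scramble and at 71.8, 74.1 and 66.6 CPM with eGFP, and fell by 0.46 (SE 0.0579, edgeR adjusted p = 0.000723). HLA-C stood at 69.2, 68.3 and 62.3 CPM and at 48.4, 50.1 and 44.6 CPM, and fell by 0.48 (SE 0.0602, edgeR adjusted p = 0.000681). For both classical heavy chains the eGFP libraries lay below all scramble libraries.

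HLA-E stood at 49.9, 51.9 and 43.3 CPM with scramble and at 33.0, 37.2 and 32.2 CPM with eGFP in HEK293T, and fell by 0.50 (SE 0.0815, edgeR adjusted p = 0.00199). B2M stood at 159.5, 169 and 154 CPM and at 121, 128 and 131 CPM, and fell by 0.34 (SE 0.0556, edgeR adjusted p = 0.00197). TAP2 stood at 47.0, 47.9 and 48.9 CPM and at 40.5, 40.2 and 38.5 CPM, and fell by 0.27 (SE 0.0390, edgeR adjusted p = 0.00122). HLA-F, a nonclassical heavy chain, held 180, 133 and 172 counts and 41, 76 and 26 counts, and fell by 1.69 (SE 0.357, edgeR adjusted p = 0.00641). TAP1 did not pass, at a log2 value of -0.26 (edgeR adjusted p = 0.0726), and PSMB9, at 7 to 37 counts with eGFP, had a 95% interval of -1.10 to 1.16. Without eGFP replicate 3, the HEK293T library with the highest A549 markers, 6 members were called, with HLA-B at -0.41, B2M at -0.37 and HLA-F at -1.42. In that fit TAP1 was at -0.16 and PSMB9 at -0.71, against 0.03 with all libraries, and neither was called. With libraries scaled by their totals alone, the split of all genes in this comparison moved from 5183 higher and 5845 lower to 6735 higher and 4212 lower.

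The difference of the eGFP effect between the lines was tested as an interaction. It was above 0 in A549 relative to HEK293T for HLA-C, HLA-E, HLA-F, B2M, TAP1 and PSMB9, 6 of the 9 members, with 26.4% of 24763 genes called and 15.6% above 0. The differences on the log2 scale were 1.58 for HLA-E (SE 0.133, edgeR adjusted p = 3.67e-05), 1.54 for B2M (SE 0.101, adjusted p = 1.29e-05) and 1.84 for TAP1 (SE 0.165, adjusted p = 5.49e-05). They were 1.27 for HLA-C, 3.17 for HLA-F and 2.07 for PSMB9, with adjusted p of 0.0188, 0.00421 and 0.0386. The PSMB9 call was lost when any 1 of 8 of the 12 libraries was left out, with values of 1.80 to 2.17. Without A549 scramble replicate 3, 5 members were called, with HLA-C at 1.00, HLA-E at 1.59 and HLA-F at 3.40, and without HEK293T eGFP replicate 3 there were 6, with HLA-C at 1.23, HLA-E at 1.56 and HLA-F at 2.92. Scaling by library totals moved the split of all genes from 3861 above and 2672 below 0 to 2226 and 3626, and kept 6 members called. No value is given for TAP2, which had no counts in A549. HLA-B (adjusted p = 0.341) and PSMB8 (adjusted p = 0.733) were not called.

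**Figure D3:**
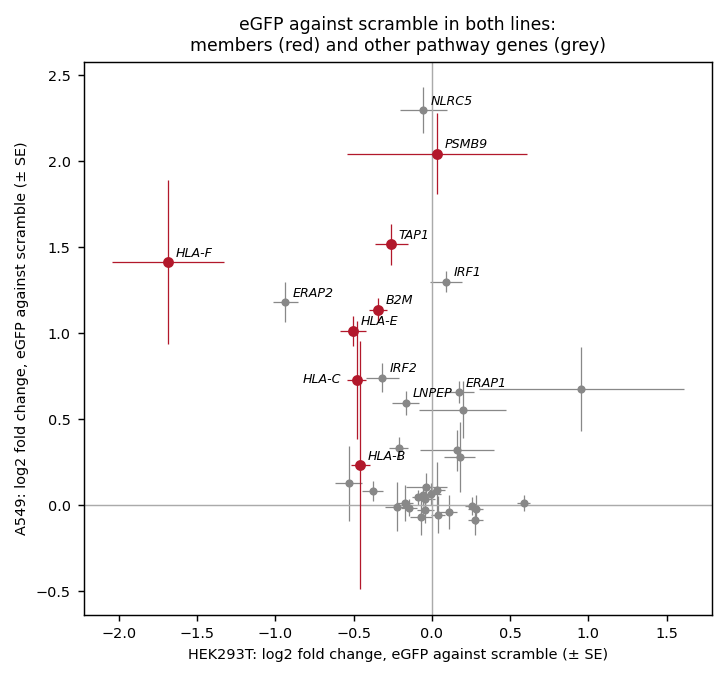
Log2 fold change of eGFP against scramble in HEK293T (x axis) and A549 (y axis), with standard errors, for 7 members (red) and 30 other genes of the pathway (grey) tested in both lines. Not all other genes tested are drawn. Of those drawn, TAP1, B2M, HLA-E, PSMB9 and HLA-F, the last not called in A549, lie above 1 on the A549 axis, with NLRC5, IRF1 and ERAP2. Of these all but PSMB9 and IRF1 lie left of 0 on the HEK293T axis. PSMB9 is drawn at 0.03 on that axis and was at -0.71 without HEK293T eGFP replicate 3, called in neither fit.

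snaR-A was compared with scramble, its matched U6 control, to ask what the noncoding RNA itself changed. In HEK293T, HLA-B, HLA-C, HLA-E, HLA-F and B2M fell, 5 of 8 members tested, among 36.3% of 22667 genes called and 18.5% that fell. HLA-E stood at 49.9, 51.9 and 43.3 CPM with scramble and at 40.6, 36.2 and 36.3 CPM with snaR-A, and fell by 0.35 (SE 0.0727, edgeR adjusted p = 0.00663). B2M stood at 159.5, 169 and 154 CPM and at 139, 134 and 140.2 CPM, and fell by 0.21 (SE 0.0452, edgeR adjusted p = 0.00734). In both genes each snaR-A library lay below each scramble library.

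The heavy chains HLA-B and HLA-C fell by 0.16 and 0.17 with snaR-A in HEK293T, from means of 97.2 and 66.6 CPM to 86.5 and 58.6 CPM. HLA-F went from 180, 133 and 172 counts to 141, 73 and 54 counts and fell by 0.98. These 3 calls had edgeR adjusted p of 0.0324, 0.0300 and 0.0350, and the number of members called ranged from 2 to 6 when a library was left out. Without scramble replicate 1, snaR-A replicate 2 or snaR-A replicate 3, only HLA-E and B2M were called, and scaling by library totals left only HLA-E. That scaling moved the split of all genes from 4031 higher and 4198 lower to 6112 higher and 2275 lower. TAP1 (log2 value -0.17, adjusted p = 0.123), TAP2 (-0.10, adjusted p = 0.0885) and PSMB9 (0.37, adjusted p = 0.371) did not pass.

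In A549, snaR-A changed none of the 8 members tested at this threshold, where 0.0185% of 21662 genes, or 4 genes, were called by edgeR and 1329 had an unadjusted p under 0.05. DESeq2 called 38 genes and edgeR's exact test called 20, and neither called a member. B2M stood at 197, 205 and 193 CPM with scramble and at 209.8, 226 and 233 CPM with snaR-A, without overlap, with a log2 value of 0.17 and a 95% interval of 0.06 to 0.27 (edgeR unadjusted p = 0.0147, adjusted p = 0.794). HLA-E had an interval of -0.03 to 0.35 and TAP1 one of -0.01 to 0.39, so that falls of the size seen for HLA-E in HEK293T lay outside these intervals. Without scramble replicate 3, 53 genes were called in place of 4, and no member was called then or without replicate 3 of the snaR-A group, whose labels conflict. Tested as an interaction, the snaR-A effect in A549 lay above that in HEK293T for HLA-E by 0.49 (SE 0.132, edgeR adjusted p = 0.0333) and for B2M by 0.37 (SE 0.0668, edgeR adjusted p = 0.00633), 2 of 9 members, with 11.4% of 24784 genes called and 4.79% above 0. The HLA-E call was lost when any 1 of 7 of the 12 libraries was left out, among them A549 snaR-A replicate 3 (0.42, adjusted p = 0.053), while B2M was called without each of the 12. Without A549 scramble replicate 3, 4268 genes were called in place of 2831, and TAP1 (0.45, adjusted p = 0.0365) joined HLA-E (0.59) and B2M (0.38).

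**Figure D4:**
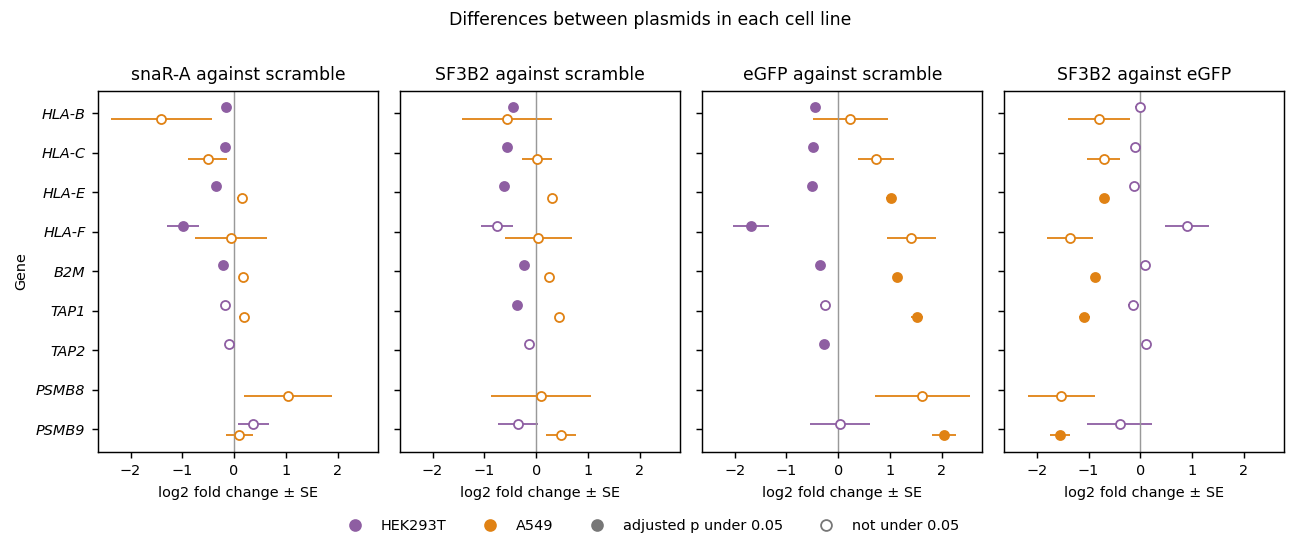
Log2 fold change with its standard error for each member (y axis) in 4 comparisons of plasmids, in HEK293T (purple) and A549 (orange). Filled points have an edgeR adjusted p under 0.05 and members not tested have no point; in A549 the filled points are HLA-E, B2M, TAP1 and PSMB9, at 1.01 to 2.04 for eGFP against scramble and -0.70 to -1.56 for SF3B2 against eGFP.

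SF3B2 was compared with eGFP, which shares its backbone, and with scramble. Against eGFP in A549, HLA-E, B2M, TAP1 and PSMB9 fell, 4 of 8 members tested, among 7.02% of 21581 genes called and 3.60% that fell. This comparison shares its eGFP libraries with that of eGFP against scramble, so the values are given side by side and not as separate evidence. B2M stood at 449, 469.8 and 395 CPM with eGFP and at 248, 239 and 220.4 CPM with SF3B2, and fell by 0.88 (SE 0.0697, edgeR adjusted p = 0.000808). TAP1 stood at 93.8, 95.1 and 71.5 CPM and at 42.3, 41.8 and 37.6 CPM, and fell by 1.08 (SE 0.107, edgeR adjusted p = 0.00214). PSMB9 fell by 1.56 (SE 0.194, edgeR adjusted p = 0.00618) and HLA-E by 0.70 (SE 0.0627, edgeR adjusted p = 0.00135). The 4 calls held without any single library. Scaling by library totals moved the split of all genes from 739 higher and 777 lower to 404 higher and 712 lower.

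Against scramble in A549, no member passed with all 6 libraries, among 0.233% of 21461 genes called, or 50 genes by edgeR, and 2801 with an unadjusted p under 0.05. This result turned on scramble replicate 3, the library with SF3B2 at 8773 CPM. Without it 4825 genes were called, and HLA-E (0.36, edgeR adjusted p = 0.00532), B2M (0.22, adjusted p = 0.0237) and TAP1 (0.50, adjusted p = 0.0044) were higher with SF3B2. With all 6 libraries TAP1 stood at 28.9, 28.4 and 33.4 CPM with scramble and 42.3, 41.8 and 37.6 CPM with SF3B2, without overlap, a log2 value of 0.43 (edgeR adjusted p = 0.133). DESeq2 and edgeR's exact test called the same 3 members with all 6 libraries. In A549 the means of HLA-E, B2M, TAP1 and PSMB9 ran in the order eGFP, SF3B2, snaR-A, scramble. The step from eGFP to SF3B2 was free of overlap for each of the 4, and the ranges of SF3B2 and snaR-A overlapped for each. The 4 are the members already called between eGFP and SF3B2, and the share of all genes without such overlap was not counted.

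In HEK293T, SF3B2 against scramble gave lower HLA-B, HLA-C, HLA-E, B2M and TAP1, 5 of 8 members tested, among 34.3% of 22593 genes called and 17.5% that fell. HLA-E stood at 49.9, 51.9 and 43.3 CPM with scramble and at 29.6, 31.4 and 33.5 CPM with SF3B2, and fell by 0.61 (SE 0.0839, edgeR adjusted p = 0.0025). HLA-C fell by 0.56 (adjusted p = 0.00391) and HLA-B by 0.44 (adjusted p = 0.00729), from means of 66.6 and 97.2 CPM to 45.1 and 71.1 CPM. TAP1 stood at 11.1, 10.9 and 10.0 CPM and at 7.94, 8.29 and 8.34 CPM, and fell by 0.37 (SE 0.0760, edgeR adjusted p = 0.00935). B2M fell by 0.23 (adjusted p = 0.0237), a call lost without any 1 of 3 libraries (scramble replicate 1, scramble replicate 2 or SF3B2 replicate 2).

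Between SF3B2 and eGFP in HEK293T no member passed, among 0.172% of 22623 genes called, or 39 genes by edgeR, with 4904 at an unadjusted p under 0.05. DESeq2 called 2079 genes and edgeR's exact test 644, and neither called a member; 1884 genes were called without SF3B2 replicate 3 and 13 without eGFP replicate 3, again with no member. The 95% intervals of the log2 difference were -0.17 to 0.16 for HLA-B, -0.28 to 0.01 for HLA-E, -0.02 to 0.21 for B2M and -0.35 to 0.08 for TAP1. The difference of this comparison between the lines was below 0 in A549 relative to HEK293T for HLA-E (-0.60, edgeR adjusted p = 0.0156), B2M (-1.002, adjusted p = 0.000839) and TAP1 (-0.98, adjusted p = 0.011), 3 of 9 members, with 6.10% of 24714 genes called and 3.52% below 0. Without HEK293T eGFP replicate 3 these 3 were called at -0.56, -1.03 and -0.88. The HLA-E call was lost under scaling by library totals (-0.44, adjusted p = 0.0958), which moved the median of all genes to 0.19 and the split of calls from 638 above and 869 below 0 to 924 and 292.

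The rest of the pathway was followed with 36 other genes, of which 34 were found in the table under their symbol. With eGFP against scramble in A549, 8 of the 32 tested rose and none fell, beside the 1.49% of all genes called given above, with a median log2 value of 0.08 against -0.01 for all genes tested. NLRC5, the transactivator of class I genes, stood at 6.12, 5.95 and 5.54 CPM with scramble and at 33.1, 30.8 and 23.1 CPM with eGFP, and rose by 2.30 (SE 0.134, edgeR adjusted p = 0.000143). IRF1, a factor that binds interferon-response elements, rose by 1.30 (edgeR adjusted p = 8.13e-05) and IRF2, which binds the same elements, by 0.74 (adjusted p = 0.00495). Among peptide trimming enzymes ERAP1 rose by 0.66, ERAP2 by 1.18 and LNPEP by 0.60, 3 of 6.

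None of the constitutive proteasome subunits PSMB5, PSMB6 and PSMB7 and none of the 5 peptide loading genes passed in that comparison. PSMB10, the remaining immunoproteasome subunit, stood at 3.02, 2.65 and 4.45 CPM with scramble and at 4.51, 4.25 and 3.58 CPM with eGFP, with overlap. TAPBP, or tapasin, which bridges TAP to empty heavy chains, had a log2 value of 0.68 with an adjusted p of 0.594, at 60 to 142 counts.

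With SF3B2 against eGFP in A549, 9 of 32 fell and none rose, beside 7.02% of all genes called and 3.60% that fell, with a median of -0.13 against 0.01 for all genes. Among them NLRC5 fell by 1.66 and IRF1 by 1.08. Against scramble, SF3B2 left NLRC5 higher by 0.64 (edgeR adjusted p = 0.043), the 1 pathway gene called there. With snaR-A in A549 none of 32 was called.

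**Figure D5:**
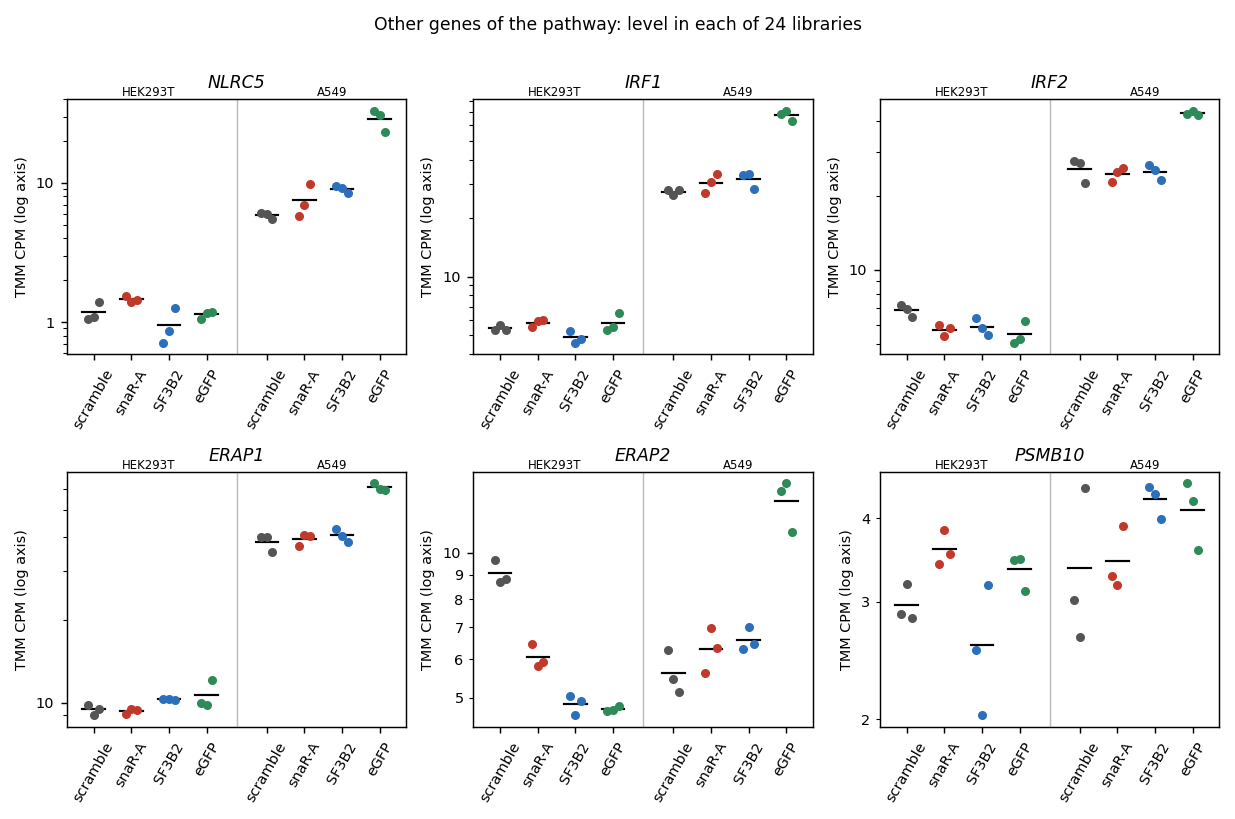
Level (TMM CPM, log axis) of NLRC5, IRF1, IRF2, ERAP1, ERAP2 and PSMB10 in every library, drawn as in the plot of the members; bars are means of 3 libraries. The A549 eGFP libraries stand apart from the other A549 libraries for the first 5 genes, with NLRC5 at 23.1 to 33.1 CPM, and overlap them for PSMB10.

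In HEK293T pathway genes were called in both directions. With eGFP, 4 of 31 tested rose and 8 fell, a smaller share than the 48.8% of all genes called, with a median of -0.03 against -0.01 for all genes. ERAP2 fell by 0.94 (edgeR adjusted p = 0.000174), the stress ligand MICA by 0.53 and the vitamin metabolite presenter MR1 by 0.38. NFKB1 rose by 0.59, RELA by 0.28 and NFYC by 0.28. NLRC5, at 281 to 342 counts in these libraries, had a 95% interval of -0.35 to 0.24. With snaR-A, 7 of 31 rose and 7 fell, beside 36.3% of all genes called, whose split turned toward higher calls under library totals as given above. Among them were ERAP2 (-0.57), MICA (-0.29) and IRF2 (-0.25) below 0 and NFKB1 (0.37), PSMB10 (0.29) and NFYC (0.28) above 0. With SF3B2 against scramble, 5 of 31 rose and 4 fell, a smaller share than the 34.3% of all genes called, with ERAP2 at -0.89, MR1 at -0.42 and MICA at -0.40, and RELA at 0.53, NFKB1 at 0.41 and CANX at 0.30. The eGFP effect differed between the lines for 11 of 32 pathway genes above 0 and 2 below, beside 26.4% of all genes called and 15.6% above 0, among them NLRC5 by 2.42 and ERAP2 by 2.18.

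MHC class II genes, which serve antigens from outside the cell, were followed as neighbours of the class I genes. Of 10 such genes, 2 could be tested in A549, the invariant chain CD74 and the class II transactivator CIITA, and neither was called in the 4 plasmid comparisons. In HEK293T, 1 of 10 tested rose and 2 fell with eGFP, and 1 of 9 fell with snaR-A and with SF3B2 against scramble, where 48.8%, 36.3% and 34.3% of all genes were called. HLA-DMA fell by 0.59 with eGFP. HLA-DPA1, the gene called higher, held 0 counts in each scramble library and 909, 438 and 704 counts with eGFP. It entered that test through the eGFP libraries alone, so its call is no independent result. With snaR-A and SF3B2 it held 0 counts in 2 of 3 libraries and 559 or 469 in the other. HLA-DPA1 lies in the MHC span described above, and whether read assignment sets these counts was not tested. HLA-DQB1 held 0 to 6 counts in A549 and 1482 to 3471 counts in HEK293T, where it fell by 0.82 with eGFP, 0.68 with SF3B2 and 0.32 with snaR-A against scramble.

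Genes with the most similar profile were sought for each member as the smallest root mean square difference over the 8 group means of log2 CPM, centred within each line, among 12070 genes. The nearest to TAP1 was APOL2, with a difference of 0.0478, followed by TRIM69 (0.0727). NLRC5 was the nearest to PSMB9 (0.0799), followed by USP18 (0.137), and APOBEC3F (0.0722) and TRIM5 (0.0764) were the nearest to B2M. HLA-E was nearest to TTC39B (0.0750) and RNF213 (0.0759). HLA-C was nearest to FBXO32 (0.150) and CRYBG1 (0.167), HLA-B to SLC1A3 (0.251) and FBXO32 (0.258), and HLA-F to SERPING1 (0.295) and ERAP2 (0.296). For PSMB8 the smallest differences were larger, with DDX60L at 0.482 and OAS1 at 0.4995. Its HEK293T values rest on 0 to 7 counts per library, while the genes searched had a mean log2 CPM of at least 1. In A549 the values of HLA-B rest on 2 to 22 counts and those of HLA-F on 4 to 33. How far counting error sets these distances was not tested. The profile of TAP2 rests on HEK293T, since its A549 values are all 0, and was nearest to NDFIP2 (0.0127) and ASCC1 (0.0152).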

How the data were processed

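RNA-seq was available for 24 libraries of HEK293T and A549 cells. Per the labels, total RNA was depleted of rRNA, enriched for poly(A)+ RNA and prepared with a stranded mRNA kit, and the authors used Trim Galore and Salmon with hg38. How transcripts were summed to genes and which annotation was used is not given in the sources used here. The deposited table holds expected counts per Ensembl gene ID, not normalized, and 51.0% of its values are not whole, so they were rounded. Symbols came from GENCODE 44, which named 54903 of 60236 IDs. The 9 members, the other gene lists and the tests were chosen with earlier results of these data known.

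Each comparison used the 6 libraries of its groups (interactions used 12), edgeR 4.0.16 (R 4.3.3) with filterByExpr, TMM scaling and the quasi-likelihood test over all genes, Benjamini-Hochberg adjustment and a threshold of 0.05. The standard error of a log2 fold change is its size divided by the square root of the F statistic, and 95% intervals come from it by the normal distribution. CPM were scaled by TMM over 24 libraries. Totals of 195185935 to 260878271 counts make 3 counts equal to 0.0115 to 0.0154 CPM, a floor that covers counting error only. An exact permutation test of 3 against 3 libraries cannot go below 0.1. Named genes were the members, NLRC5, PSMB10, TAPBP and ERAP1, up to 3 pathway genes called with the largest log2 value in each direction in each comparison, and the 2 nearest profiles of each member. With eGFP in A549 cells ERAP2, IRF2 and LNPEP lay outside these 3 and, like DHFRP2, PSMB5, PSMB6, PSMB7, CD74, CIITA, HLA-DPA1, HLA-DMA and HLA-DQB1, were named after their values were seen. Some genes that these rules name are counted but not reported here by name. Replicates of a group differed by 18.1 to 463 times the Poisson variance, so none was counted as a copy. The fits were tested on simulated counts. DESeq2 1.42.0, edgeR's exact test, other scalings and filters, pooled fits, a replicate block and fits without each library were the alternatives. Transcripts were aligned with minimap2 2.31.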

Additional observations from a re-analysis of the deposited data

Results flagged for a closer look

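The effect of a plasmid differed between the lines for 6 members with eGFP, 2 with snaR-A and 3 with SF3B2. Each difference is that of A549 minus that of HEK293T on the log2 scale, was tested as an interaction with edgeR's quasi-likelihood test, and passed Benjamini-Hochberg adjustment over all genes. For eGFP against scramble the differences were 1.267 for HLA-C, 1.582 for HLA-E, 3.167 for HLA-F, 1.545 for B2M, 1.841 for TAP1 and 2.073 for PSMB9. For snaR-A against scramble they were 0.4946 for HLA-E and 0.3674 for B2M. For SF3B2 against eGFP they were -0.6003 for HLA-E, -1.002 for B2M and -0.9751 for TAP1. The first and second of these comparisons share the scramble libraries, and the first and the third share the eGFP libraries. HLA-F held 4 to 33 counts and HLA-C 46 to 157 counts in the A549 libraries of the eGFP comparison.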

How the results depend on the processing

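Of 1459 alternative values for single members, 3 changed sign with a call: HLA-E in A549 against HEK293T, at 0.2269 between the SF3B2 libraries and 0.7925 between the eGFP libraries, and B2M, at -0.1562 with library totals alone. In HEK293T with snaR-A, 1 member was called under library totals and 2 with 12 libraries in 1 fit, in place of 5. In A549 with SF3B2 against scramble, 3 were called by edgeR's exact test and by DESeq2, in place of 0. Between the lines, 5 in place of 9 were called with at least 10 counts in every library. That filter took HLA-B, HLA-F, TAP2 and PSMB8 out of the test, and the 5 members left were all called. For the line difference of snaR-A, 1 in place of 2 was called under library totals and under a replicate block. The cause of the other shifts was not tested. Leaving out each library in turn gave 2 to 6 members called in HEK293T with snaR-A, 4 to 6 with SF3B2 against scramble and 6 to 7 with eGFP. In A549 it gave 0 to 3 with SF3B2 against scramble, 4 with eGFP against scramble, 4 with SF3B2 against eGFP and 0 with snaR-A. For the line differences it gave 5 to 6 with eGFP, 1 to 3 with snaR-A and 3 to 4 with SF3B2.

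Counts of all genes called moved more. For SF3B2 against eGFP in HEK293T, 39 genes became 644 by the exact test, 2079 by DESeq2, 126 under library totals (10 higher and 116 lower, against 9 and 30), 109 with at least 10 counts in every library and 2075 with 12 libraries in 1 fit. For snaR-A in A549, 4 became 20, 38, 12 without a filter, and 0 with at least 10 counts or with 12 libraries. For SF3B2 against scramble in A549, 50 became 214, 377, 27 with RLE scaling, 30 under library totals, 80 without a filter and 20 with 12 libraries. For SF3B2 against eGFP in A549, 1516 became 2863 by DESeq2 and 897 with 12 libraries, and for eGFP against scramble 322 became 532 and 494. For the line differences, 2831 became 4406 by DESeq2 with snaR-A, and 1507 became 4004 by DESeq2, 784 without a filter and 3472 with 24 libraries with SF3B2. Without single libraries the ranges, in the same order, were 1 to 1884, 1 to 53, 0 to 4825, 379 to 3273, 205 to 326, 1262 to 4268 and 423 to 4527. In HEK293T they were 5131 to 8318 with snaR-A and 3892 to 8996 with SF3B2 against scramble.

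The replicate numbers did not pair the samples: deviations of same-numbered libraries had a median correlation of -0.00635 in HEK293T and -0.00383 in A549, over 0.1 in 0 and 1 of 18 pairs. With the replicate block, genes called became 1 and 0 in the first and second comparisons above, 0 for SF3B2 against scramble in A549, 654, 168 and 418 for the other A549 comparisons and the line difference with SF3B2. PSMB9 with eGFP in A549 then had an edgeR adjusted p of 0.0597. Counts were few for HLA-B, HLA-C and HLA-F in A549 and for PSMB8 and PSMB9 in HEK293T, and TAP2 had none in A549. Whether depth or read assignment limits these counts was not tested.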
